A study of Drosophila melanogaster with 12 samples.

Results

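In the +6 h wing, 411 of 1210 EcR binding peaks (34.0%) shared no base with any of the 4965 peaks listed at -6 h, and these 411 prepupal-only peaks are described here. EcR is the nuclear receptor of ecdysone, the steroid hormone whose pulses time moulting and metamorphosis in insects. It binds DNA as a partner of Ultraspiracle, the product of usp, and its target genes can be repressed without hormone and activated with it. In the wing, the late larval pulse is followed by the change of the flat imaginal disc into the everted, bilayered prepupal wing. The members were chosen by position only: a +6 h peak was kept where not 1 bp of it lay inside a larval peak. The other 799 peaks of the +6 h list, termed shared, overlapped 781 larval peaks, and 4184 larval peaks overlapped no +6 h peak.

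Binding was mapped by CUT&RUN, in which an antibody directs a nuclease to a tagged protein and the released DNA is sequenced. All 4 CUT&RUN libraries came from wings of female Drosophila melanogaster of the strain EcR-GFSTF, kept at 25 degrees and carrying w/w with the tagged allele EcR[GFSTF] over the deficiency Df(2R)BSC313. A mouse antibody against FLAG was used throughout. There were 2 libraries from +6 h, counted from puparium formation and staged at the white prepupa, and 2 from -6 h, from wandering third-instar larvae. A library from animals with no FLAG tag is not part of the samples used here. Peak names show that the 2 libraries of a stage were merged before peaks were sought, so each stage has 1 list and no replicate error, and the number of fragments behind a peak is unknown. The +6 h list covered 248169 bp and the -6 h list 1177233 bp, so the list that a member had to miss was longer and wider than its own. All statements about peaks are therefore descriptions of 2 lists, with no test between stages.

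RNA was measured in 8 separate libraries of female wings at the same stages, 2 per group, with recovered depths of 6444939 to 10016236 reads. The EcR-RNAi animals were yw/yw and carried Vg-GAL4, UAS-Flp and a Tub>>CD2>>GAL4 cassette, which starts GAL4 in cells where Vg-GAL4 has acted, plus UAS-GFP with the hairpin UAS-EcR-RNAi[104]. Wild-type RNA came from +/+ animals, so neither RNA genotype is that of the CUT&RUN wings. EcR stood at 2201 and 2081 normalized counts in EcR-RNAi at +6 h and at 5764 and 6852 in wild type at +6 h. At -6 h EcR stood at 1634 and 1307 normalized counts in EcR-RNAi and at 2194 and 1924 in wild type. Both wild-type libraries at +6 h were thus above the other 6 libraries. For usp, the values were 796 and 842 normalized counts in EcR-RNAi at +6 h and 1142 and 1297 in wild type at +6 h, against 726 and 794 in EcR-RNAi at -6 h and 772 and 665 in wild type at -6 h. The wing markers vg, nub, rn and ap summed to 9283 to 12845 normalized counts per library, the 4 myoblast markers to 1787 to 5272 and the 3 tracheal markers to 7025 to 9386. Single markers ran from 1651 to 4729 for wing, from 75.6 to 3438 for myoblasts and from 31.3 to 8562 for trachea. The tracheal sum thus rested unevenly on its markers and does not measure the amount of trachea. The 4 fat body markers summed to 179 to 3734, the 2 haemocyte markers in the table to 96.1 to 495 and the 3 muscle markers to 5.77 to 53.7. Single markers ran from 5.12 to 1302 for fat body and from 4.92 to 483 for haemocytes. These sums do not measure the amount of either tissue. Genes were not placed on peaks, because the peaks are in build dm3 and the gene positions at hand are in another build.

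Prepupal-only peaks were mostly weak within their own list. Their fold enrichment over background, the authors' value for each peak, had a median of 3.93 in prepupal-only peaks and 6.03 in shared peaks. The middle 50% of the values ran from 3.47 to 5.06 in prepupal-only peaks and from 4.34 to 10.04 in shared peaks. Prepupal-only peaks ran from 2.28 to 21.1 and shared peaks from 2.503 to 63.7, so the sets overlapped up to 21.1 and shared peaks alone lay above. A fold above 10 was found for 18 prepupal-only peaks (4.38%) and for 202 shared peaks (25.3%), and a fold under 5 for 306 prepupal-only peaks (74.5%) and 298 shared peaks (37.3%). In -log10 q, the caller's adjusted significance, medians were 4.46 in prepupal-only and 12.4 in shared peaks. Whether a peak's own strength bears on finding a partner at the other stage was not tested, and these values only describe the set.

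Ranked by -log10 q, the +6 h list held more prepupal-only peaks the further down it was read. In the strongest 10% of the list, 5 of 121 peaks (4.13%) were prepupal-only, with the highest member at rank 55 of 1210. The share was 28.9% just above and just below the middle of the list, and it was 71.9% (87 of 121 peaks) in the weakest 10%. Of the upper 50% of the list 101 of 605 peaks (16.7%) were members, and of the lower 50% 310 of 605 (51.2%). Each of the 10 strength groups held members, so the set is a weak-leaning part of the list with a strong tail rather than its bottom end.

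**Figure D1:**
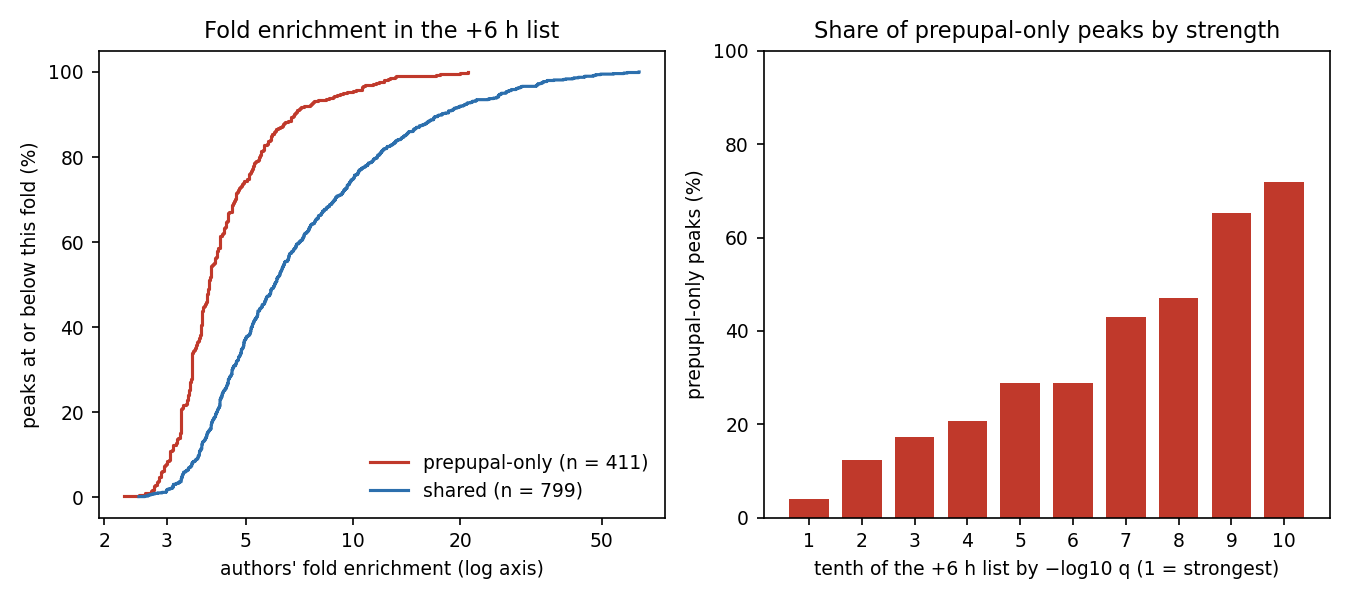
Left, the cumulative share of peaks (y axis, %) at or below each fold enrichment given by the authors (x axis, log scale) for 411 prepupal-only and 799 shared peaks of the +6 h list. Right, the share of prepupal-only peaks (y axis, %) in each of 10 equal groups of that list ranked by -log10 q (x axis, 1 the strongest), which was 4.13% in the first group and 71.9% in the last.

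Members were also narrow. Their median width was 102 bp in prepupal-only and 172 bp in shared peaks, and 199 prepupal-only peaks (48.4%) against 130 shared peaks (16.3%) were under 100 bp. Widths above 300 bp occurred in 13 prepupal-only peaks (3.16%) and 184 shared peaks (23.03%). A wide +6 h peak has more bases that can touch a larval peak, so the rule favours narrow members. How much of the contrast in width this makes was not tested. Wider members tended to be stronger, with a Spearman correlation between fold and width of 0.48 over the 411 peaks, which share their libraries and their caller. The median position of the summit was 51.4% of the width in prepupal-only and 48.4% in shared peaks. Single summits were widely scattered, from 0.526% to 97.3% in prepupal-only and from 1.67% to 95.1% in shared peaks. The lower and upper quartiles were 33.8% and 69.9% in prepupal-only peaks and 34.2% and 63.4% in shared peaks. Identical caller values were common: 177 prepupal-only peaks (43.1%) and 177 shared peaks (22.2%) had the same fold and q as another peak of their own set. The largest such set held 23 prepupal-only peaks at a fold of 3.52 and a -log10 q of 2.89. Ties also occurred among strong members, such as the 2 peaks of the highest 10 that share a fold of 12.2 and a -log10 q of 38.9.

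Members lay at widely varying distances from larval peaks, with 231 of 411 (56.2%) within 10000 bp. The distance expected for random positions was not computed. The distance between nearest edges had a median of 7973 bp, with the middle 50% between 1383 and 23215 bp and a range of 5 to 374798 bp. Of the 411 peaks, 15 (3.65%) were within 100 bp of a larval peak, 71 more (17.3%) within 1000 bp and 145 more (35.3%) within 10000 bp. Another 134 (32.6%) were farther than that but within 50000 bp, and 46 (11.2%) lay beyond. The median fold hardly varied over these classes. It was 3.64 within 100 bp, 3.99 from there to 1000 bp, 3.93 to 10000 bp, 3.98 to 50000 bp and 3.77 beyond. The median -log10 q was 4.63, 4.77, 4.71, 4.31 and 3.81 in the same order. The highest fold was 5.64 among the 15 peaks within 100 bp and 13.2 to 21.1 in the other classes. The Spearman correlation of fold with distance was -0.016 over the same 411 peaks. Median widths in those classes lay between 93 and 107 bp. The nearest larval peak of a member was itself without a +6 h partner in 326 of 411 cases (79.3%), beside 84.3% of all larval peaks.

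Fewer larval peaks lay around members than around shared sites. The rule itself favours this contrast, since a shared site needs a larval peak and a member must miss all of them. No genome-wide level was set beside these counts. Within 10 kb on either side, the median number of larval peaks was 1 for prepupal-only and 6 for shared peaks, where the overlapped peak itself counts. No larval peak lay within 10 kb of 180 members (43.8%). Widening to 50 kb gave medians of 4 for prepupal-only and 13 for shared peaks. From a member to the nearest shared peak of its own stage the median distance was 63747 bp, against 27636 bp between a larval-only peak and its nearest shared larval peak. Within 10000 bp of a shared site of their own list stood 93 members (22.6%) and 1437 of 4184 larval-only peaks (34.3%), and within 1000 bp 44 members (10.7%) and 490 larval-only peaks (11.7%). The shared sites are 799 peaks in the +6 h list and 781 in the larval list, so nearly the same places serve both measures.

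The 44 members within 1000 bp of a shared +6 h peak had a median fold of 4.26, and the median fold of their shared neighbours was 7.06. In 34 of these 44 pairs the shared neighbour had the higher fold, as did the nearest shared peak, however far, for 321 of all 411 members (78.1%). At the other end, 25 members (6.08%) stood more than 50000 bp from every other peak of either list. Those isolated members had a median fold of 3.52, yet 2 of them exceeded 10. The other 342 members fell between these settings with a median fold of 3.93.

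**Figure D2:**
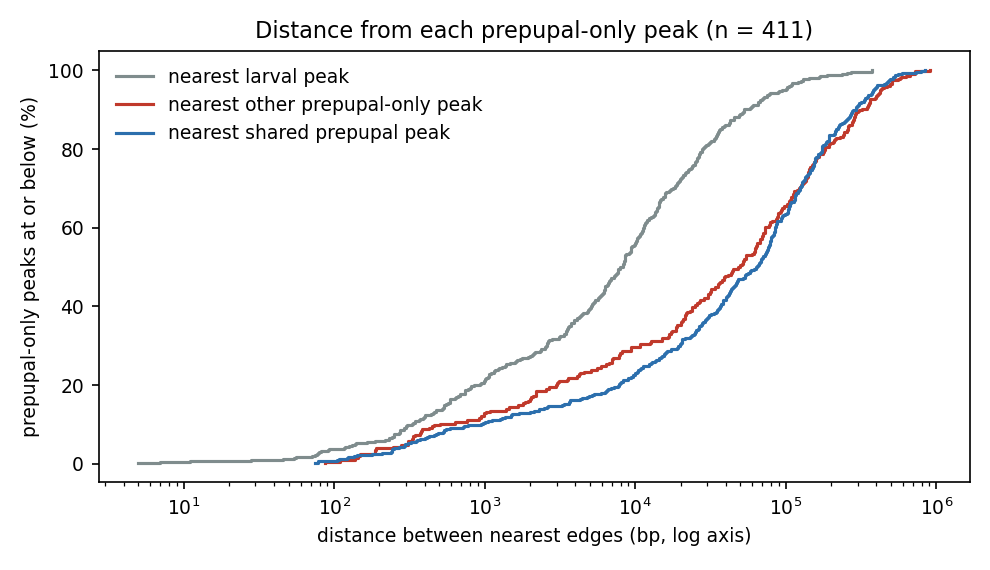
Cumulative share of the 411 prepupal-only peaks (y axis, %) against the distance to 3 kinds of neighbour (x axis, bp, log scale). Larval peaks, the largest set at 4965 peaks, were nearest, at a median of 7973 bp. Other prepupal-only peaks and the 799 shared +6 h peaks had medians of 48333 and 63747 bp. These medians were not adjusted for the size of each set.

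The numbering of larval peaks limits how far absence from the larval list can be read. Peak names carry a serial number that follows position along each arm; it reaches 1653 for the 1210 prepupal peaks and 6180 for the 4965 larval peaks, so 443 prepupal and 1215 larval numbers are not in the lists used here. Between the 2 larval peaks that flank a member, at least 1 larval number was absent for 202 of 411 members (49.1%), 1 number for 137 of them and up to 4 for others. The numbering ran unbroken for 205 members, and 4 lay beyond the outermost larval peak of their arm. Over all intervals between neighbouring larval peaks, 943 of 4959 (19.0%) lacked a number, but members sit in long intervals. In intervals under 10 kb a number was absent for 20 of 75 members (26.7%), against 323 of 3308 intervals (9.76%). In intervals of over 50 kb it was absent for 133 of 236 members (56.4%), against 298 of 655 intervals (45.5%). Where an absent call lay within its interval is unknown, so whether any of them covered a member was not tested. The 202 members with an absent number and the 205 without had median folds of 3.89 and 3.99 and median distances to a larval peak of 10057 and 5765 bp. Being both in the upper 50% by -log10 q and in an unbroken interval left 48 members. They had a median fold of 6.02, a median width of 152.5 bp and a median distance of 2481 bp. The cut on -log10 q itself selects stronger peaks, and unbroken numbering alone left a median fold of 3.99 and a median width of 100 bp.

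Members were spread over all 5 large arms, with 53 on 2L, 99 on 2R, 87 on 3L, 97 on 3R and 75 on X. The only +6 h peak on chromosome 4 was shared. Per arm, 43.4% of +6 h peaks were prepupal-only on 2R (99 of 228), 38.2% on 3R, 34.1% on X, 27.7% on 3L and 27.5% on 2L. The order depended on peak strength. Among weaker peaks 2R led with 80 of 124 (64.5%), while among stronger peaks 3R led with 31 of 128 (24.2%) and 2R had 19 of 104 (18.3%). The deficiency that all CUT&RUN animals carry lies on 2R, by its name, and its part in the share on that arm was not tested. Median distances to a larval peak ran from 6210 bp on 2L to 10479 bp on X, and the interval around the member lacked a larval number for 39.2% of members on 3R to 57.3% on X.

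**Figure D3:**
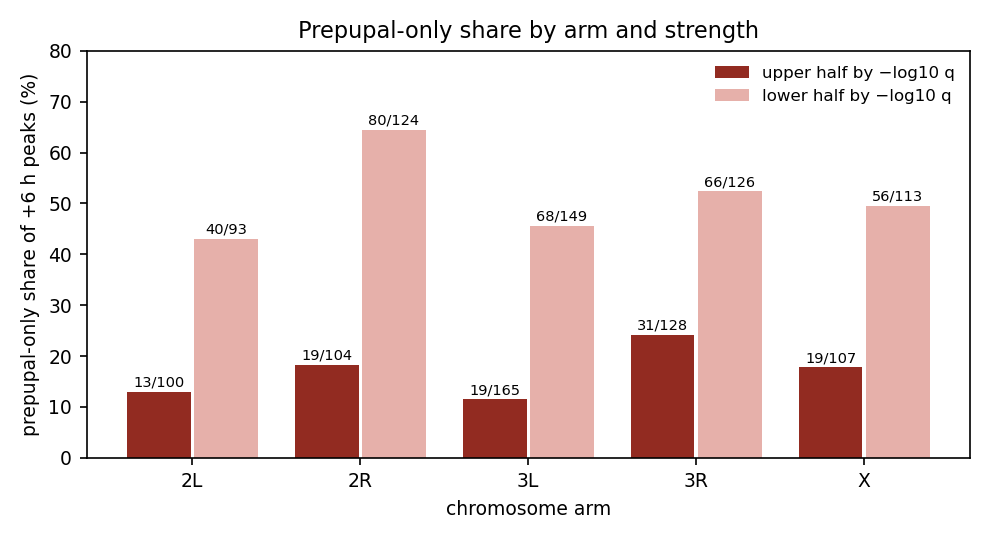
Share of +6 h peaks that were prepupal-only (y axis, %) on each arm (x axis), for the upper and lower 50% of the list by -log10 q, with counts above the bars. On 2R 80 of 124 weaker peaks but 19 of 104 stronger peaks were prepupal-only, and on 3L 68 of 149 and 19 of 165.

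The 10 prepupal-only peaks with the highest fold enrichment ranged from 12.2 to 21.1 in fold and from 38.9 to 111 in -log10 q. The first, chr3L:17932684-17933365, was 682 bp wide with a fold of 21.1 and a -log10 q of 111, and it was also the widest member. It stood 740 bp from a larval peak and 493 bp from a shared +6 h peak. The second, chr3L:6257033-6257464, had a fold of 19.9 over 432 bp, 741 bp from a larval peak, with its nearest shared +6 h peak at 37387 bp. Larval numbers ran unbroken around the first of these members, but 2 were absent from the interval of the second.

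The other 8 of the 10 varied in their surroundings. The peak chrX:9084841-9084916 had a fold of 17.5 at a width of 76 bp, the only one of the 10 under 100 bp, and its nearest larval peak was 60363 bp away, across an unbroken run of larval numbers. The peak chr2L:20908334-20908534 reached a fold of 17.2 with a larval peak 14370 bp away and 3 larval numbers absent from its interval. On 3R, chr3R:789162-789381 had a fold of 13.2 and a larval peak at 1173 bp, and chr3R:14880631-14880835 a fold of 13.1 and a larval peak at 9310 bp, both in unbroken intervals. The X chromosome held 3 more, chrX:5949283-5949602 at a fold of 12.7, chrX:17075429-17075540 at 12.6 and chrX:5971258-5971453 at 12.2, which were 30477, 10479 and 52452 bp from larval peaks. Their nearest other members were 4306, 445 and 16770 bp away. The last, chr3R:20603426-20603542, also had a fold of 12.2, with a larval peak at 9555 bp and another member at 187 bp. In 5 of the 10, no larval peak lay within 10 kb, in 6 a larval number was absent from the interval, and in 9 the nearest larval peak had no +6 h partner.

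**Figure D4:**
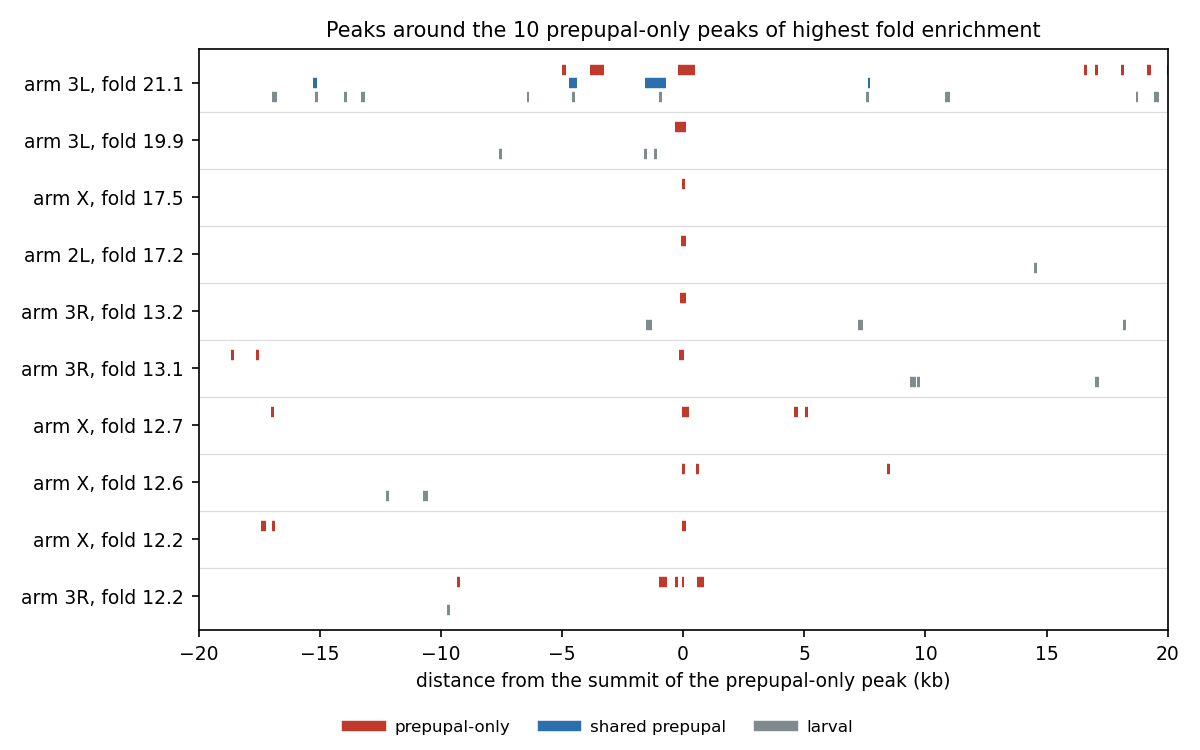
Peaks within 20 kb on either side (x axis, kb from the summit of the member) of the 10 prepupal-only peaks of highest fold enrichment, 1 row per member in order of fold. The first row is crowded with shared and larval peaks, whereas 5 rows show no larval peak within 10 kb of the member.

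Some members came in compact groups. Chaining members up to 1000 bp apart gave 24 groups of at least 2, which held 53 members (12.9%). Chaining up to 10000 bp gave 47 groups with 122 members (29.7%). Such closeness is not particular to members. The median distance to the nearest other +6 h peak was 18783 bp for members and 2434 bp for shared peaks. The tightest group of 4 spanned 1858 bp at chr3R:20602475-20604332. Its members had folds of 11.6, 3.85, 12.2 and 9.04 in order along the arm, and the nearest shared +6 h peak was at least 173015 bp away. The nearest larval peak was 8604 to 10179 bp away, with 1 larval number absent from the interval, and another member with a fold of 7.16 stood 8212 bp to the left, 273 bp from that larval peak. On the X chromosome, 3 members at chrX:18561056-18561957 had folds of 6.90, 4.68 and 4.75 and were 54 to 370 bp from larval peaks; the first 2 were only 87 bp apart, the closest pair of members. A group of 3 at chr2R:2176239-2177403 had folds of 3.901 to 4.88 and was at least 34329 bp from larval binding. Compact groups therefore occurred both beside larval peaks and far from them.

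Another member lay within 10000 bp of 122 members (29.7%), within 50000 bp of 208 (50.6%) and within 100000 bp of 269 (65.5%), which left 142 (34.5%) with none that near. The window with most members, chr3L:17927887-18027886, held 11 prepupal-only and 42 shared +6 h peaks. It also held 92 larval peaks, 49 of them without a +6 h partner. The window was chosen by its count of members, yet they were a smaller part of its +6 h peaks than the 34.0% of the whole list. The 11 members in the window had folds of 2.70 to 21.1 with a median of 3.998, and were 132 to 2006 bp from larval peaks. They were not spread over the window: 3 lay in its first 5479 bp, 6 between chr3L:17949438-17954389 and 2 at chr3L:17970264-17970686, while no member lay in the rest of the window to the right, where larval peaks were dense. The rule bars members from larval peaks, so dense larval peaks leave less room for members. The first 3, with folds of 6.34, 5.26 and 21.1, flanked 2 shared peaks with folds of 28.8 and 39.6 in the +6 h list. Each of those 2 shared peaks overlapped a larval peak of at most 70 bp with a fold of 4.14 and 4.53 in the larval list. Fold values of the 2 lists come from separate peak calling and were not compared. The 6 in the next stretch had folds from 2.70 to 6.07 and ended 309 bp before a run of shared peaks. They were mostly weaker, but the strongest of them exceeded the lowest fold of the first 3, 5.26.

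**Figure D5:**
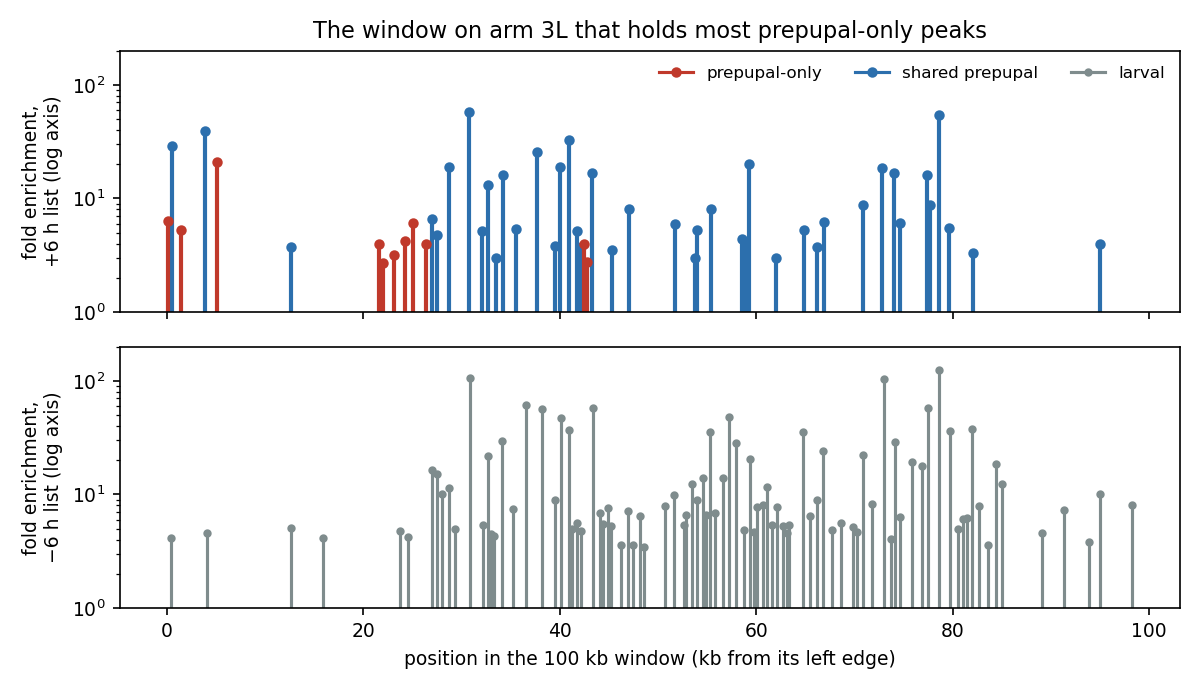
The 100 kb window on 3L with 11 prepupal-only peaks: position in the window (x axis, kb) against the authors' fold enrichment (y axis, log scale) in the +6 h list (top, prepupal-only and shared) and in the -6 h list (bottom). Prepupal-only peaks, which by the rule overlap no larval peak, stand in the left part only, beside 92 larval peaks over the whole window.

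The next densest separate window, chr3R:9621449-9721448, held 10 members, 6 shared +6 h peaks and 16 larval peaks. There, members were a larger part of the +6 h peaks than the 34.0% of the whole list. Of the 10 members in the window, 8 lay in the first 22223 bp, with folds of 2.89 to 5.87. They were interleaved with the 6 shared peaks, of which 4 had folds from 11.7 to 32.9. The strongest member of the window, chr3R:9657849-9658041, had a fold of 9.36 and stood farther off, 5617 bp from a larval peak.

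The rule turned on single bases for a few peaks. Just outside the overlap, chr3L:11144190-11144337, chr3R:5723434-5723561 and chr2L:16282943-16283038 were members at 5, 7 and 11 bp from a larval peak, with folds of 4.02, 3.62 and 3.69. Just inside, chr3R:9622996-9623084, chr3L:2157467-2157657 and chr3R:14938399-14938474 counted as shared through 6, 14 and 14 bp of overlap, with folds of 3.52, 4.31 and 3.67. The -log10 q values were 5.02, 4.63 and 5.77 for the 3 members and 2.89, 5.35 and 4.29 for the 3 shared peaks, in the same order. After the first peak on 3L, the widest members were chr3R:7951320-7951915, at 596 bp with a fold of 10.2 and a larval peak 2379 bp away, and chr3L:17929058-17929614, at 557 bp with a fold of 5.26. Farthest from larval binding were 2 neighbours, chr2R:562246-562372 and chr2R:562619-562705, 374798 and 374465 bp away and beyond the outermost larval peak of the arm. Their folds were 3.50 and 3.95, and the third, chr2L:22648120-22648223, had a fold of 4.34 at 270027 bp.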

How the data were processed

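Groups follow the titles of 12 samples. The submitters' processing notes name MACS2 2.1.1.20160309, Bowtie2 2.2.8, bedtools 2.25.0, Picard 2.2.4 and SAMtools 1.3.1 for the CUT&RUN libraries, and build dm3. In the deposited peak lists each peak has a position, a score, a ratio giving its fold enrichment over background, -log10 values of the p-value and q-value, and a summit. The score is 10 times the -log10 q and was not used, nor were the 2 columns of -log10 p. Width equals end minus start plus 1 in each row, so starts are 1-based. The lowest -log10 q is 1.31 in the +6 h list and 1.36 in the larval list.

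RNA values are normalized counts, a signal scaled by the authors by library, as their steps show in the deposited table: 100% of values are whole multiples of 1 read (tolerance 0.1). The notes list STAR 2.5.2b, Subread 1.24.2 and DESeq2 1.14.1. Whether replicates were separate animals is not stated. RNA was not tested here.

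Overlaps and distances (start of the right peak minus end of the left) were computed in Python 3.11.15 with pandas 2.3.3 and NumPy 2.4.6, and tested on simulated intervals. Named peaks are the 10 of highest fold, the 3 widest, the 3 farthest from a larval peak, the 3 nearest to the overlap rule on each side, and the densest 100 kb window; the compact groups and second window were picked after their values were seen. The members and lists were chosen with earlier results of these data known. No dm3 genome was used here, so no gene or sequence is given for a peak.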

Additional observations from a re-analysis of the deposited data

How the results depend on the processing

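The count of 411 prepupal-only peaks stayed within 1.5 times under 5 of the 6 alternatives chosen at the start: 411 with starts read as 0-based, 450 when at least 50% of the +6 h peak had to be covered, 396 and 325 when larval peaks within 100 and 1000 bp also counted, and 512 with only the stronger 50% of larval peaks. With only the stronger 50% of +6 h peaks it was 101 of 605 peaks. Fewer peaks entered, and the share that were members was also lower, at 16.7% against 34.0% in the whole list. In unbroken larval numbering, an alternative chosen after seeing the data, it was 205, with a median distance to a larval peak of 5765 bp in place of 7973 bp. That distance was 8340 bp between summits and 21152 bp with the stronger 50% of larval peaks, which leaves fewer peaks to be near. The median fold and width were 3.93 and 102 bp over 1000 bp from any larval peak, and 3.99 and 100 bp in unbroken numbering. Restriction to the main arms could not change them, because all 411 members lie there. No paired analysis was possible because peaks were called on merged replicates, and replicates could not be left out for the same reason. The planned RNA comparisons of genes linked to peaks were not run, as no gene was placed on a peak. Depth of the CUT&RUN libraries is unknown, so absence from the larval list does not show absence of binding.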
